A study of Mus musculus with 10 samples.

Results

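The genes described here are the rows of the deposited count table whose identifiers run from MGP_BALBcJ_G0023500 to MGP_BALBcJ_G0023599, kept as members if they had 10 or more counts in at least 5 of the 10 libraries. The table holds 96 of these 100 numbers, and 67 of its 41880 rows met the rule for this block. Members were chosen by their identifier and their counts, and the block was selected on the genotype comparison itself, because it holds more genes that differ between the genotypes than any other block of that width. Its genotype differences are therefore given as a description, with no test of the block, and they support nothing beyond it.

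The libraries hold poly-A RNA of the cerebral cortex from 12-month-old mice, 5 of which were HIV-1 gp120 transgenic (gp120tg) and 5 of which were wild-type controls of the same age (WT). The promoter that drives the transgene, the founder line, the strain background, the sex of the mice and any litter or preparation day are not stated in these sources. The labels name separate biological replicates, so each library was taken as 1 mouse. In such bulk tissue, fewer cells of a type and less RNA per cell cannot be told apart.

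The gp120 protein is the outer part of the HIV-1 envelope, which binds CD4 and a chemokine co-receptor on host cells. Brain expression of gp120 in mice is used as a model of the neural injury that accompanies HIV infection. The identifiers have the form that Ensembl gives to its annotation of BALB/cJ, a common inbred mouse strain. In mammalian genomes, members of a gene family often lie side by side, as do some unrelated genes that are switched on in the same cells. Whether the identifier numbers here follow the order of genes along a chromosome is likewise not stated, so "neighbouring" below refers to the numbers alone. Looked up in the available tables of mouse gene names, 0 of the identifiers were found. No symbol, function, position, length or sequence is therefore given for any member, and the labelled tissue was not checked against cell type markers.

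Library totals ranged from 17061862 to 19774880 counts in gp120tg and from 16451161 to 19176929 in WT. The genotypes separated along the first principal component of all 16941 genes tested, which carried 35.8% of the variance. On the second, which carried 19.2%, gp120tg replicate 4 and WT replicates 4 and 5 stood apart from the other 7 libraries, scoring -40.39 to -34.45 against -1.874 to 31.84. Results that rest on these 3 libraries are given with and without them.

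Of the 67 members, 54 reached 10 counts in every library. The genotype fit tested 65, and MGP_BALBcJ_G0023514 and MGP_BALBcJ_G0023592 were left out by its filter on low counts. A gene was called where edgeR's quasi-likelihood test, adjusted over all genes tested by the Benjamini-Hochberg method, gave a value under 0.05. In the block 18 members were called, 27.7% of those tested, whereas 8.37% of all genes tested were called. Higher expression in gp120tg accounted for 16 of the 18, with a background of 6.40% called higher. Lower expression accounted for 2, with a background of 1.97% called lower. The other 47 members tested were not called. No weight can be put on the excess over the background, because the block was selected for it.

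**Figure D1:**
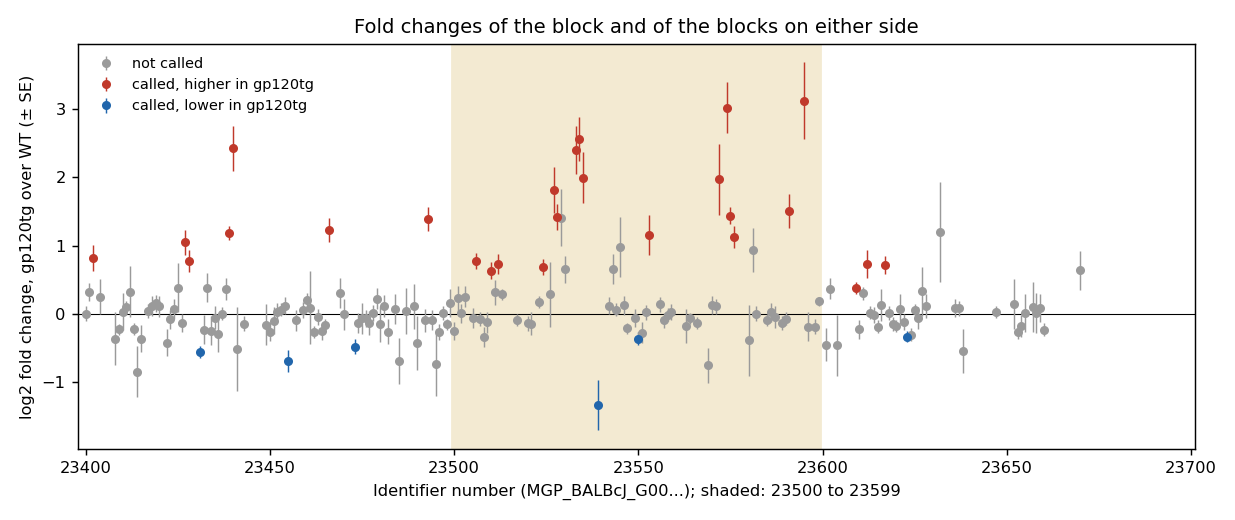
Log2 fold change (gp120tg over WT, with its standard error) of each tested member against identifier number, for the block (shaded) and the blocks of 100 numbers on either side. Red points were called higher, blue points called lower and grey points not called. Of the red points inside the block, all but 23553 lie in 23506 to 23512, 23524 to 23535, 23572 to 23576 or 23591 to 23595. These ranges are the stretches of the text, joined by a rule set after the values were seen.

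The placement of the called members within the block is described here without a test. Members called higher whose numbers followed each other by steps of at most 5 were joined into stretches, a rule set after the values were seen. Of the 16 called higher, 15 lay in 4 such stretches that together span 29 of the 100 numbers. Steps of up to 5 would join many of 16 calls over 100 numbers wherever they fell. The 15 and the 29 therefore do not show that the calls sit together. By the rule, each stretch begins and ends with a member called higher, so those calls at its ends were fixed in advance. The first stretch, 23506 to 23512, held 7 tested members, of which 3 were called higher. The second, 23524 to 23535, held 9 tested members, of which 6 were called higher and all 9 had a positive log2 fold change, from 0.28 to 2.57. The third, 23572 to 23576, held 4 members, and all 4 were called higher. The last stretch, 23591 to 23595, held 2 tested members near the end of the block. Both are its ends, and so were called higher by the rule. MGP_BALBcJ_G0023553 was the member called higher that lay in none of them.

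By the rule, members called higher in the intervals between the stretches could only be isolated ones. Few such calls there are therefore no separate result. From 23513 to 23523 edgeR called 0 of 5 tested members, with 1 at an unadjusted p under 0.05. DESeq2 called 1 member there, MGP_BALBcJ_G0023514, which edgeR's filter had left out. The edgeR log2 fold changes ran from -0.15 to 0.28. From 23577 to 23590 edgeR called 0 of 8, with 1 at an unadjusted p under 0.05 and 0 called by DESeq2, and log2 fold changes ran from -0.39 to 0.93. The interval from 23536 to 23571 held 22 tested members, of which 1 was called higher and 2 lower. There 7 members had an unadjusted p under 0.05 and DESeq2 called 4. The median log2 fold change of this interval was 0.0029.

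Taking only the next and the preceding tested number, 11 of the 18 called members (61.1%) had a neighbour called in the same direction. Over the rest of the annotated rows this held for 246 of 1312 called genes (18.8%). A block with more calls has more called neighbours for that reason alone, so the 2 shares are given side by side without a test. The run of 4 from 23572 to 23576 was 1 of 6 runs of that length in the whole table, and 1 run elsewhere had 5 genes.

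In the second stretch, MGP_BALBcJ_G0023533, MGP_BALBcJ_G0023534 and MGP_BALBcJ_G0023535 carry consecutive numbers. MGP_BALBcJ_G0023533 measured 10.9, 8.76, 7.76, 5.57 and 6.03 read counts per 1000000 of the library (CPM) in gp120tg replicates 1 to 5, and 0.820, 3.09, 0.796, 1.48 and 1.17 CPM in WT replicates 1 to 5. Every gp120tg library lay above every WT library, and WT replicate 2 was the highest of its group. Its means were 7.81 ± 2.17 CPM in gp120tg and 1.47 ± 0.948 CPM in WT (SD, n = 5 per group). The fitted difference was 5.29-fold (log2 fold change 2.40, standard error 0.356).

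For MGP_BALBcJ_G0023534 the gp120tg libraries held 4.99, 3.74, 3.90, 3.66 and 2.84 CPM and the WT libraries 0.316, 0.773, 0.367, 1.04 and 0.689 CPM. Its 5.93-fold difference (log2 fold change 2.57, standard error 0.321) rested on 56 to 101 counts per gp120tg library and 5 to 17 per WT library. MGP_BALBcJ_G0023535 held 5.09, 4.46, 3.53, 3.83 and 1.67 CPM in gp120tg and 0.694, 0.891, 1.16, 0.369 and 1.48 CPM in WT. The groups of this gene came close, since gp120tg replicate 5 at 1.67 CPM was only just above WT replicate 5 at 1.48 CPM. The fitted difference was 3.99-fold, with a standard error of 0.375 on the log2 scale.

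Another consecutive pair stood earlier in the same stretch. MGP_BALBcJ_G0023527 held 6.13, 5.23, 2.69, 4.12 and 2.43 CPM in gp120tg and 1.14, 0.535, 1.41, 1.66 and 1.11 CPM in WT, a 3.51-fold difference. MGP_BALBcJ_G0023528 held 14, 15.3, 9.07, 13.2 and 11.2 CPM in gp120tg and 4.42, 3.45, 4.22, 5.78 and 5.62 CPM in WT, a 2.67-fold difference with a standard error of 0.188 on the log2 scale. In both genes gp120tg replicates 1 and 2 were the highest libraries and no libraries of the groups overlapped. MGP_BALBcJ_G0023524, at the start of the stretch, differed less, by 1.61-fold, with means of 18.9 ± 2.42 CPM in the transgenic and 11.8 ± 0.607 CPM in the control mice (SD, n = 5 per group). The 3 members of the stretch that were not called, MGP_BALBcJ_G0023526, MGP_BALBcJ_G0023529 and MGP_BALBcJ_G0023530, had log2 fold changes of 0.28, 1.41 and 0.65.

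Summed over the 6 called members of this stretch, the libraries held 64.15, 56.82, 44.9, 47.42 and 41.57 CPM in gp120tg replicates 1 to 5 and 18.87, 20.68, 19.83, 22.99 and 21.09 CPM in WT replicates 1 to 5. The sum was thus highest in gp120tg replicates 1 and 2 and varied little among the WT libraries, with means of 50.97 ± 9.30 and 20.69 ± 1.54 CPM (SD, n = 5 per group).

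**Figure D2:**
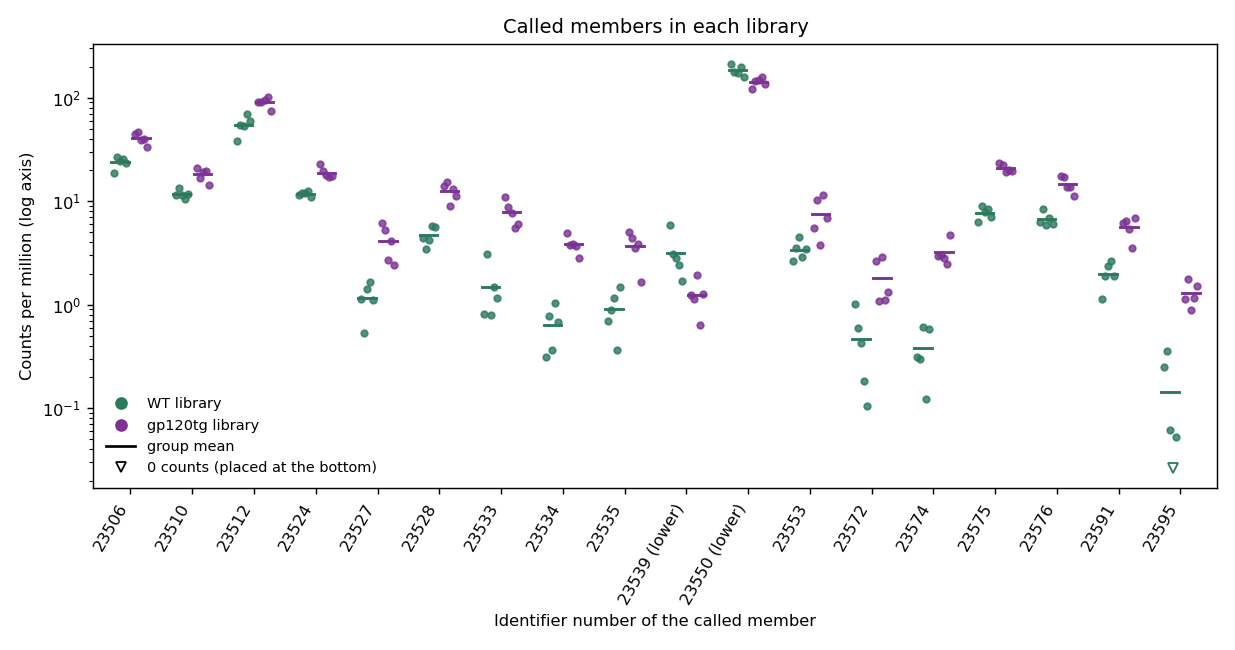
CPM (read counts per 1000000 of the library, log axis) of the 18 called members in each library, in order of identifier number, with green points for WT, purple points for gp120tg and a bar for each group's mean. The groups do not overlap in 15 of the 16 genes called higher and overlap in both genes called lower; an open triangle marks a library with 0 counts.

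The run from 23572 to 23576 skips 23573, which fell under the minimum count. MGP_BALBcJ_G0023574 held 2.97, 3.02, 2.80, 2.50 and 4.77 CPM in gp120tg and 0.316, 0.297, 0.612, 0.123 and 0.583 CPM in WT. The difference was 8.13-fold, with a standard error of 0.371 on the log2 scale, and rested on 43 to 94 counts per gp120tg library and 2 to 11 per WT library. The highest value, in gp120tg replicate 5, was well above the other 4 of its group.

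MGP_BALBcJ_G0023575 was better measured, with at least 99 counts in every library. Its gp120tg libraries held 23.6, 22.6, 19.2, 19.9 and 19.6 CPM and its WT libraries 6.25, 8.91, 7.96, 8.48 and 7.10 CPM. The means were 20.9 ± 2.0 and 7.74 ± 1.07 CPM (SD, n = 5 per group), and the 2.71-fold difference had the smallest standard error of the members that changed at least 2-fold, 0.126 on the log2 scale. MGP_BALBcJ_G0023576 held 17.5, 17.3, 13.6, 13.8 and 11.2 CPM in gp120tg and 6.31, 8.44, 5.94, 6.88 and 6.09 CPM in WT, a 2.18-fold difference. For both genes the lowest gp120tg library stood clear of the highest WT library.

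The fourth gene of the run was less even. MGP_BALBcJ_G0023572 held 2.67, 1.08, 2.90, 1.10 and 1.32 CPM in gp120tg and 1.01, 0.594, 0.428, 0.184 and 0.106 CPM in WT. The groups did not overlap, but gp120tg replicates 2 and 4 were close to WT replicate 1. Its log2 fold change of 1.97 had a standard error of 0.525, and its call was lost in 8 of the 18 other analyses: without gp120tg replicate 1 or 3, without WT replicate 2, 3, 4 or 5, without the 3 libraries named above (log2 fold change 1.57), and under the filter on 10 counts in every library, which removed the gene. The run of 4 depends on this call, and the same filter also removed MGP_BALBcJ_G0023574.

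At the end of the block, MGP_BALBcJ_G0023595 showed the largest fold change of the members. It had 23, 35, 17, 20 and 30 counts in gp120tg and 4, 6, 1, 0 and 1 counts in WT, which correspond to 1.14, 1.79, 0.897, 1.16 and 1.52 CPM against 0.252, 0.357, 0.0612, 0 and 0.0530 CPM. The fitted difference was 8.72-fold (log2 fold change 3.12, standard error 0.562). This gene reached the minimum count in the gp120tg libraries alone, as MGP_BALBcJ_G0023514 did, so both could enter the block only by being higher there.

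MGP_BALBcJ_G0023591 held 6.13, 6.46, 5.38, 3.54 and 6.84 CPM in gp120tg and 1.14, 1.90, 2.39, 2.64 and 1.91 CPM in WT. Here gp120tg replicate 4 was the lowest of its group and still above all WT libraries. The means differed 2.84-fold, with a standard error of 0.254 on the log2 scale.

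In the first stretch the members called higher differed by less than 2-fold. MGP_BALBcJ_G0023506 differed 1.70-fold, with 33.6 to 46.8 CPM in gp120tg and 18.9 to 26.9 CPM in WT. MGP_BALBcJ_G0023512 differed 1.66-fold, with 75.1 to 102 CPM in gp120tg and 37.8 to 69.9 CPM in WT. MGP_BALBcJ_G0023510 differed 1.55-fold, with 14.2 to 21.1 CPM in gp120tg and 10.4 to 13.5 CPM in WT, and lost its call without those 3 libraries (log2 fold change 0.58 in place of 0.63). In all 3 genes the groups did not overlap.

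MGP_BALBcJ_G0023553 was the 1 member called higher whose groups overlapped. Its gp120tg libraries held 5.54, 10.3, 3.75, 11.5 and 6.84 CPM and its WT libraries 2.65, 3.57, 4.47, 2.89 and 3.44 CPM, so that gp120tg replicate 3 lay below WT replicate 3. Without the 3 libraries named above, its log2 fold change was 0.92 in place of 1.15 and it was not called. The call was also lost with limma-voom, with the replicate number as a block, and without gp120tg replicate 2 or 4 or WT replicate 1, 2 or 4, in all 8 of the 18 other analyses.

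Across the block 18 members tested had every gp120tg library above every WT library, and none had every gp120tg library below. Over all genes tested these shares were 6.66% and 2.70%. The 18 were 15 of the genes called higher together with MGP_BALBcJ_G0023513, MGP_BALBcJ_G0023529 and MGP_BALBcJ_G0023599, which were not called. Calls of at least 2-fold were made for 13 members, 12 higher and 1 lower, where the backgrounds were 4.20% for both directions together and 3.50% for higher expression alone. DESeq2, run in place of edgeR, called 23 members. Its background was 8.80% of 21749 rows, some of which had too few counts for the member rule, unlike the background of edgeR.

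Both members called lower had overlapping groups. MGP_BALBcJ_G0023539 held 1.24, 1.13, 1.95, 0.638 and 1.27 CPM in gp120tg and 5.93, 3.09, 2.82, 2.40 and 1.70 CPM in WT. WT replicate 1 was the highest library, and WT replicate 5 lay below gp120tg replicate 3. The fit gave a log2 fold change of -1.34 (standard error 0.367). MGP_BALBcJ_G0023550 averaged 142 ± 14.1 CPM in the transgenic and 183 ± 21.1 CPM in the control mice (SD, n = 5 per group), a log2 fold change of -0.36 with 0.101 as its standard error. These 2 genes lay just inside the threshold for a call, with edgeR adjusted values of 0.0392 and 0.0429. Just outside it were MGP_BALBcJ_G0023529 (0.0561) and MGP_BALBcJ_G0023513 (0.0682), both with higher levels in gp120tg. Neither gene that was called lower remained called in every analysis that left out 1 library.

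**Figure D3:**
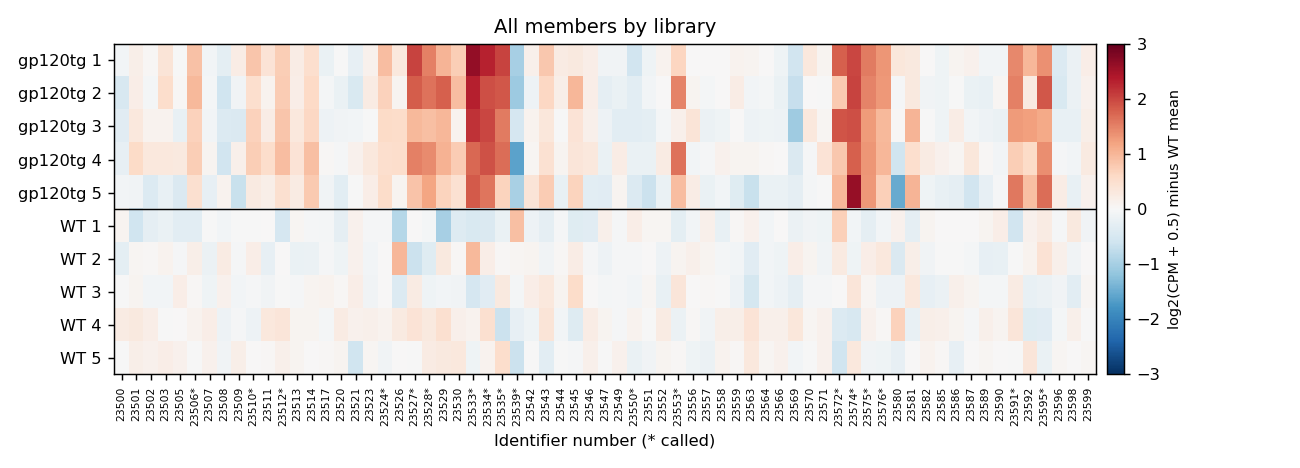
Each of the 67 members (columns, in order of identifier number, an asterisk marking the called ones) in each library (rows), as log2(CPM + 0.5) minus the WT mean on the same scale, red for higher and blue for lower. The gp120tg rows show red bands at 23527 to 23535, 23572 to 23576 and 23591 to 23595, and most other columns are pale in all 10 libraries.

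The 47 members that were tested and not called lay on both sides of zero. Of these, 23 had a positive and 24 a negative log2 fold change, with a median of -0.016, against -0.026 for all genes tested. For 41 of them the log2 fold change was within 0.5 of zero. The 6 beyond it were MGP_BALBcJ_G0023529 (1.41), MGP_BALBcJ_G0023530 (0.65), MGP_BALBcJ_G0023543 (0.66), MGP_BALBcJ_G0023545 (0.97), MGP_BALBcJ_G0023581 (0.93) and MGP_BALBcJ_G0023569 (-0.75). A missed call does not show that such a gene was the same in both genotypes.

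The members with the most reads were among those not called. MGP_BALBcJ_G0023590 held 677 to 812 CPM in gp120tg and 671 to 890 CPM in WT, with a log2 fold change of -0.072 and a standard error of 0.0956. MGP_BALBcJ_G0023598 held 503 to 560 CPM in gp120tg and 472 to 726 CPM in WT, and MGP_BALBcJ_G0023523 held 279 to 349 against 261 to 312 CPM. The groups overlapped in all 3. Transcript lengths are not at hand, so these read counts do not rank the genes by number of transcripts.

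As a whole the block took up a like share of reads in both genotypes. All 67 members together held 3689 ± 177 CPM in gp120tg and 3731 ± 262 CPM in WT (SD, n = 5 per group). As shares of the raw library totals, before TMM scaling, they held 0.375% ± 0.0174 and 0.365% ± 0.0169, so the order of the means depends on the scaling and both differences are within the spread between libraries. The 16 members called higher made up a small part of this, 256.1 ± 25.4 CPM in gp120tg and 132.1 ± 16.8 CPM in WT. Over these 16 genes the mean CPM of a gene had a median of 5.07, against 21.2 over the members not called and 17.5 over all genes tested.

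The spread within a genotype enters each call, so it is given here as a description only. The coefficient of variation among the 5 WT libraries had a median of 25.0% over the members called higher, 11.0% over those not called and 18% over all genes tested. In gp120tg these medians were 21.6%, 13.6% and 17.2%. Genes with few reads vary more by sampling alone, and the part of read number in these medians was not tested. Within gp120tg, replicate 1 was the highest library in 8 of the 16 genes called higher and replicate 5 the lowest in 7. Within WT, replicates 2 and 4 were the highest in 6 each, and replicate 1 the lowest in 6. Such counts over all genes tested are not given, so this order is not read as particular to the 16 genes.

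The values next to the minimum count were as follows. Exactly 5 libraries reached 10 counts in MGP_BALBcJ_G0023514, MGP_BALBcJ_G0023592 and MGP_BALBcJ_G0023595. MGP_BALBcJ_G0023514 had 10 to 14 counts in gp120tg against 2 to 4 in WT, and MGP_BALBcJ_G0023592 had 9 to 26 against 2 to 10. Exactly 4 libraries reached 10 counts in MGP_BALBcJ_G0023562, MGP_BALBcJ_G0023565 and MGP_BALBcJ_G0023593. The last of these, between the pair at the end of the block, had 21, 20, 8, 19 and 26 counts in gp120tg and 2, 5, 3, 2 and 3 in WT. MGP_BALBcJ_G0023562 had 2 to 18 counts in gp120tg and 2 to 14 in WT, and MGP_BALBcJ_G0023565 had 3 to 18 and 3 to 12.

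Of the 29 rows of the block under the minimum, 6 had no count in any library and 23 had some. The summed level of 16 of these 23 was higher in gp120tg, without a test. Some of these differences rest on very few counts, and no share over other rows under the minimum is given. The 16 are therefore not read as a trend. MGP_BALBcJ_G0023573, inside the run of 4, had 6, 8, 7, 11 and 3 counts in gp120tg and 2, 3, 0, 0 and 0 in WT. MGP_BALBcJ_G0023515 had 8, 7, 1, 11 and 2 counts in gp120tg and 0 in all 5 WT libraries. In a single library, a count of 0 allows a mean of up to 3 counts at 95% confidence. The 5 WT libraries together allow less.

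The blocks on either side held fewer called genes. In the preceding block, which ends at MGP_BALBcJ_G0023499, 77 rows met the same rule, 76 were tested and 10 were called (13.2%), 7 higher and 3 lower. The following block, which starts at MGP_BALBcJ_G0023600, had 37 such rows, all tested, of which 4 were called (10.8%), 3 higher and 1 lower. Their median log2 fold changes over all tested members were -0.029 and 0.017, and that of the block was 0.11. Among all blocks with at least 30 tested members such medians ran from -0.285 to 0.149, so that of the block was not the highest. Calls of at least 2-fold numbered 5 in the preceding block, and the 4 calls in the following block were all under 2-fold.

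Tested members without a call lay at both edges of the block. Such gaps were not particular to the edges, since 23577 to 23590 inside the block held 8 tested members without a call. Of the genes called before the block, the nearest was MGP_BALBcJ_G0023493 (log2 fold change 1.39, standard error 0.178). Between that gene and MGP_BALBcJ_G0023506 lay 11 tested members without a call. After the block, the nearest was MGP_BALBcJ_G0023609 (log2 fold change 0.38, standard error 0.0847), with 6 tested members without a call between it and MGP_BALBcJ_G0023595. In windows of 20 numbers, the preceding block had at most 3 genes called higher and the following block at most 3, while the 5 windows of the block had 3, 6, 1, 4 and 2. The windows with 6 and 4 were 23520 to 23539, with 13 tested members, and 23560 to 23579, with 10. The other 3 windows did not exceed the highest of the neighbours. A difference between the blocks was not tested, because the calls themselves chose the block.

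**Figure D4:**
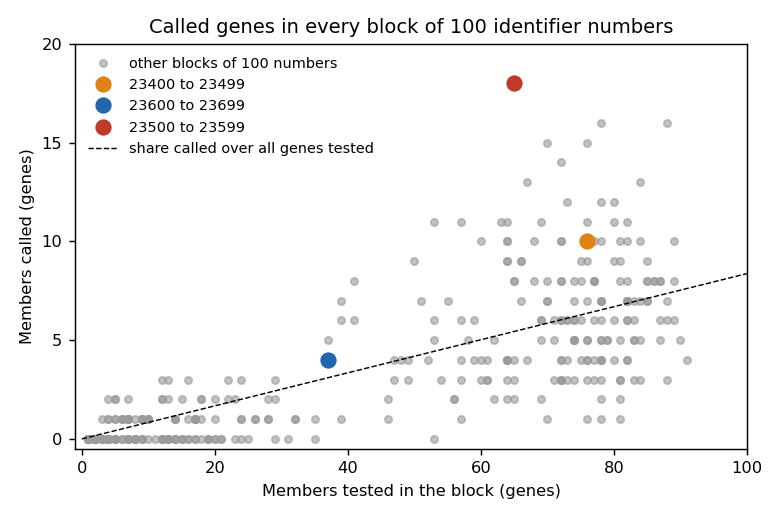
Number of members called against number of members tested for every block of 100 identifier numbers that held a tested member. The block described here is in red and its neighbours are in orange and blue. A dashed line marks the share called over all genes tested (8.37%). The red point, at 65 tested and 18 called, is the highest; the blocks next in number of calls had 16.

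Over the whole table, blocks with at least 30 tested members had a median of 6 called genes. The blocks next in number of calls, 28800 to 28899 and 32500 to 32599, had 16 each, and the highest share called in another such block was 21.4%. For calls of at least 2-fold the block had 13 and the next block 12. Windows of the same width that start 50 numbers earlier and 50 later held 14 and 12 called members.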

How the data were processed

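The authors deposited raw gene counts in 1 table, with a column for each library. The tools that the submitters' processing notes list are HTSeq (version 0.5.4), SAMtools (version 0.1.18), STAR, GATK and Picard, with no roles. Build, annotation release and strand setting are not stated there, so how reads of near-identical or overlapping genes were counted is not known. From the counts, gp120tg was compared with WT by edgeR version 4.0.16 (R version 4.3.3): TMM factors, the default filter by group, robust quasi-likelihood test, group alone in the model, Benjamini-Hochberg adjustment over 16941 genes. The standard error is the size of the log2 fold change over the root of the F statistic. CPM use the library size times its TMM factor. The fit was also run on counts simulated from its own model. Such counts cannot show whether that model holds for these libraries.

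Members and lists were chosen with earlier results of these data known. Named are all called members, with values per library for the 10 with the largest absolute log2 fold change and for the longest run, the 3 with most reads, those next to each threshold, and the called gene nearest to each edge. MGP_BALBcJ_G0023573 and MGP_BALBcJ_G0023515, values per library of MGP_BALBcJ_G0023539, MGP_BALBcJ_G0023553 and MGP_BALBcJ_G0023593, the uncalled members past 0.5 log2 or without overlap, and the stretches were chosen after their values were seen. Alternatives covered scaling, filters, DESeq2 version 1.42.0, limma version 3.58.1, the replicate number as a block, libraries left out, thresholds and block edges.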

Additional observations from a re-analysis of the deposited data

Results flagged for a closer look

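Dixon's test was applied to 46 sets of 5 values, 1 for each genotype of the members given individually, and marked 2 single libraries; chance marks about 1 in 20 sets. MGP_BALBcJ_G0023574 measured 4.77 CPM in gp120tg replicate 5, above the 2.50 to 3.02 CPM of the other gp120tg libraries. MGP_BALBcJ_G0023529 measured 4.25 CPM in gp120tg replicate 2, where the others held 1.67 to 2.32 CPM.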

How the results depend on the processing

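No called member changed sign in the 18 other fits that tested it, and 8 of the 18 were called in all of them. The direction of a called member is largely fixed by that choice. The number called, 18, was 17 with upper-quartile factors, 23 with DESeq2, 21 with limma-voom and 15 (13 higher, 2 lower) without gp120tg replicate 4 and WT replicates 4 and 5. It was 11 (10 higher, 1 lower) when every library had to reach 10 counts, a filter that removed 6 of the called members from the fit. Among those removed were MGP_BALBcJ_G0023595, MGP_BALBcJ_G0023574 and MGP_BALBcJ_G0023534, whose fold changes were the largest of the block. When single libraries were left out in turn, 15 to 18 members were called, 15 to 16 higher and 0 to 2 lower, and 14 to 17 of the 18 remained called. The number lower, 2, was 0 without gp120tg replicate 1 or 2 or WT replicate 1, 2 or 3, and 1 without gp120tg replicate 3, 4 or 5 or WT replicate 4. It was also 1 with upper-quartile factors, with no filter on low counts and with a minimum of 2-fold, 4 with limma-voom, and 0 at an adjusted p under 0.01. At a minimum of 2-fold the preceding block had 5 calls and the following block 0, and at an adjusted p under 0.01 the following block had 1. With the replicate number as a block, 15 members were called, 15 higher and 0 lower. The numbers are not known to pair the mice: same-numbered libraries correlated at -0.171 to 0.327 in their deviations from the group means. Among the called members, MGP_BALBcJ_G0023572 and MGP_BALBcJ_G0023595 had the largest standard errors, 0.525 and 0.562, and mean levels of 1.14 and 0.723 CPM.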
